A study of Mus musculus with 6 samples.

Results

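The sequences described here are unannotated small RNAs that map to the 2 genomic loci of miR-1a and miR-133a. They were chosen by position alone, as listed sequences placed within a window of 12 kb on chromosome 2 or of 7 kb on chromosome 18 (GRCm38) around the hairpins named below. Of 1832 listed unannotated sequences 444 met this rule, and they held 244804 of the 499305 unique molecular identifiers (UMIs, tags that count molecules) listed there, or 49.0%. The locus on chromosome 2, with the hairpins Mir1a-1 (180389048 to 180389124) and Mir133a-2 (180398379 to 180398482) on the plus strand, held 258 of them and 179229 UMIs. The locus on chromosome 18 held 186 sequences and 65575 UMIs, with Mir1a-2 (10785481 to 10785552) and Mir133a-1 (10782909 to 10782976) on the minus strand, inside the span of the protein-coding gene Mib1 and opposite to it. The mice were male C57BL6 animals, 16 weeks old, on normal chow, and the tissue was skeletal muscle. Of the 6 libraries 3 are labelled Sham and given as controls, and 3 come from mice with TAC (transverse aortic constriction), an operation that narrows the aorta and overloads the heart, with a treatment time of 8 weeks in the sample labels of both groups. The labels do not name the muscle or say what separates the replicates, so p-values measure only the spread between these libraries, which may be technical.

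miRNAs are cut from hairpin precursors and loaded into Argonaute proteins, where the seed, bases 2 to 8 of the mature strand, pairs with target mRNAs. The genes of miR-1a and miR-133a are transcribed together, as pairs, in striated muscle, where miR-1 is known for restraining growth and favouring differentiation and miR-133 for its part in myoblast proliferation. Both loci of a pair give the same mature 3p strand. Variants of a mature miRNA in sequencing data, called isomiRs, can differ in the first base, in the last base or in an internal base. An earlier first base or an internal change in the seed alters the letters that pair with targets.

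The same kind of variant was listed for miR-206-3p, a muscle miRNA from a hairpin on chromosome 1 whose seed and first 10 bases are those of miR-1a-3p. Its sequences are shown because they display, letter by letter, the kind of change described below, and 4 of the 5 changes also occurred in miR-1a-3p. The mature sequence is from RefSeq (GRCm38.p6, chr1:20679055-20679076, plus strand) with its seed in capitals. Unannotated sequences were taken where they start at its first base, are no longer than it and differ from it by 1 base. The 5 of these with most UMIs follow with the substituted base in capitals. A substitution is written as the annotated base, its position counted from 1 at the 5′ end of the mature strand, and the base found.
miR-206-3p: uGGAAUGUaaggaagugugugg
miR-206-3p A5G: tggaGtgtaaggaagtgtgtgg
miR-206-3p G11T: tggaatgtaaTgaagtgtgtgg
miR-206-3p A4G: tggGatgtaaggaagtgtgtgg
miR-206-3p G2A: tAgaatgtaaggaagtgtgtgg
miR-206-3p T6A: tggaaAgtaaggaagtgtgtgg
All 5 are 22 nt long and start and end where the mature strand does. Each differs from it by 1 base, and 4 of the 5 by a base of the seed.

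Libraries differed in depth, with 1179365 (Sham 3) to 3440232 (Sham 1) miRNA UMIs, 37947 to 121238 UMIs of unannotated sequences and 16051 to 58520 UMIs of members. The muscle miRNAs miR-1a-3p, miR-133a-3p, miR-133b-3p and miR-206-3p together made 532453 to 615439 of every 1000000 miRNA UMIs, and 8 of 9 muscle mRNAs of the marker list were present as fragments, Myh7 being unlisted. Within that sum miR-206-3p made 0.499% to 2.78% in Sham and 0.104% to 0.326% in TAC. The shares of miR-1a-3p, miR-133a-3p and miR-133b-3p overlapped between groups. Outside the sum, miR-208b-3p had 132, 28 and 87 UMIs in Sham and 0, 0 and 2 in TAC. The heart markers miR-208a-3p and Myh6 were unlisted in every library. A pair of liver miRNAs summed to 131 to 205 per 1000000 in Sham and 187 to 2205 in TAC, and 3 epithelial miRNAs to 22.9 to 68.6 in Sham and 1.31 to 6.26 in TAC. Their part in the results below was not tested. In bulk tissue, fewer cells of a type and less RNA per cell cannot be told apart.

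The working description of these sequences as length and end variants was incomplete, since nearly all members carried an internal base change of an annotated mature strand. Many also differed from that strand in start or length, as given below. Against the hairpin letters, 294 members carried 1 substitution, 7 carried none and the rest (32.2%) carried 2. In 9 members, with 1059 UMIs, a base was read as N, and it is counted here and in the sums below as a substitution. By strand, 199 were forms of miR-1a-3p with 196058 UMIs, 236 were forms of miR-133a-3p with 47777 UMIs, and 9 were forms of miR-133a-5p with 969 UMIs. None lay on the opposite strand, in a loop or outside the hairpins. The 7 without a substitution were miR-133a-5p sequences starting 2 or 3 bases before the annotated first base, the most abundant of them, 22 nt long from 2 bases upstream, with 61, 34 and 9 UMIs in Sham 1 to 3 and 35, 37 and 27 in TAC 1 to 3. Of the 444, 441 differed equally from both loci, so the locus each is listed at does not show which gene it came from.

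Among the listed single substitutions of miR-1a-3p, those in the seed held most UMIs. Positions 2 to 8 made up 75.6% of 155098 single-substitution UMIs. The listed changes from position 1 of the strand lay at positions 2 to 16, and whether the unstated alignment rules left out others was not tested, so the share holds within that range. The most abundant was A5G, with 20396 UMIs over all lengths, or 0.306 per 100 UMIs of annotated miR-1a-3p, followed by T6A with 13258, G2A with 10965, G3A with 10957 and A4G with 10361. Changes of adenine to guanine gave 33.9% of these UMIs and guanine to adenine 20.3%. Of 45 possible changes at positions 2 to 16, 44 were listed. They ranged from 42 UMIs (G12T) to the 20396 of A5G, so the rates of single changes spread widely within 1 strand.

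miR-133a-3p had a different profile. Its seed held 41.5% of 43008 single-substitution UMIs, within the range of positions listed for it. The leading changes were C9A, just past the seed, with 4866 UMIs or 0.268 per 100 UMIs of annotated miR-133a-3p, and T6A with 3760 UMIs or 0.207. After them came T6C with 2057, C10T with 1857 and G4A with 1746. Cytosine to adenine made 20.7% of these UMIs and cytosine to thymine 17.4%, while transitions were 45.7% here and 60.9% in miR-1a-3p. Of 48 possible changes at positions 2 to 17, 44 were listed.

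**Figure D1:**
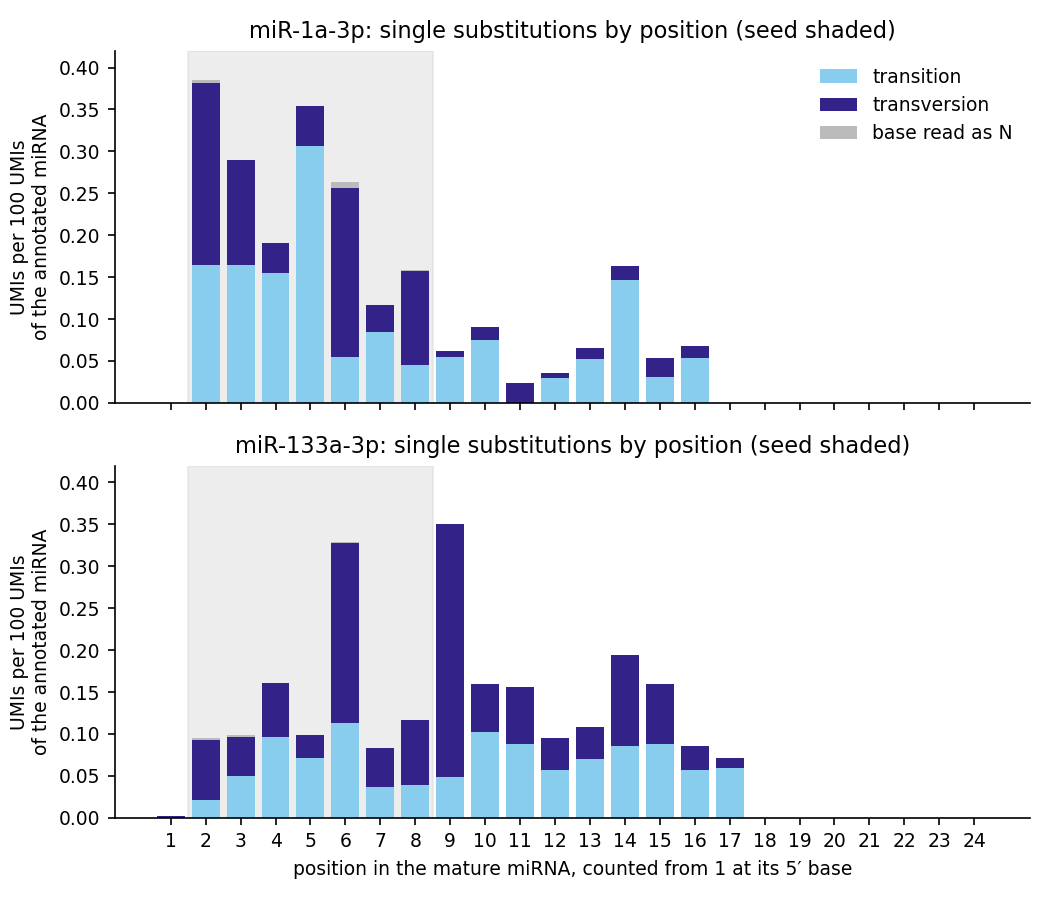
Single substitutions by position in mature miR-1a-3p (top) and miR-133a-3p (bottom), as UMIs over all 6 libraries per 100 UMIs of the annotated miRNA, stacked by kind of change, with the seed shaded. Position 2 was highest in miR-1a-3p (0.385) and position 9 in miR-133a-3p (0.351), and no bar stands past positions 16 and 17.

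The places of the changes followed the first base of the sequence itself. miR-133a-3p members came in 2 registers, 106 from position 1 of the mature strand with 29164 UMIs and 129 from position 2 with 18578 UMIs. Starting at position 2 moves the seed by 1 base. In both registers single substitutions lay between the 2nd and the 16th base of the sequence itself, which is position 2 to 16 of the miRNA in the first and 3 to 17 in the second. The same range held for the 120 miR-1a-3p members from position 1 with a single substitution. The profile also differed between registers. C9A made 16.9% of single-substitution UMIs from position 1 and 1.68% from position 2, and T6A made 13.2% and 1.12%. T6C, at the same base as T6A, made 4.20% and 5.79%, so its share did not drop in the shifted register.

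**Figure D2:**
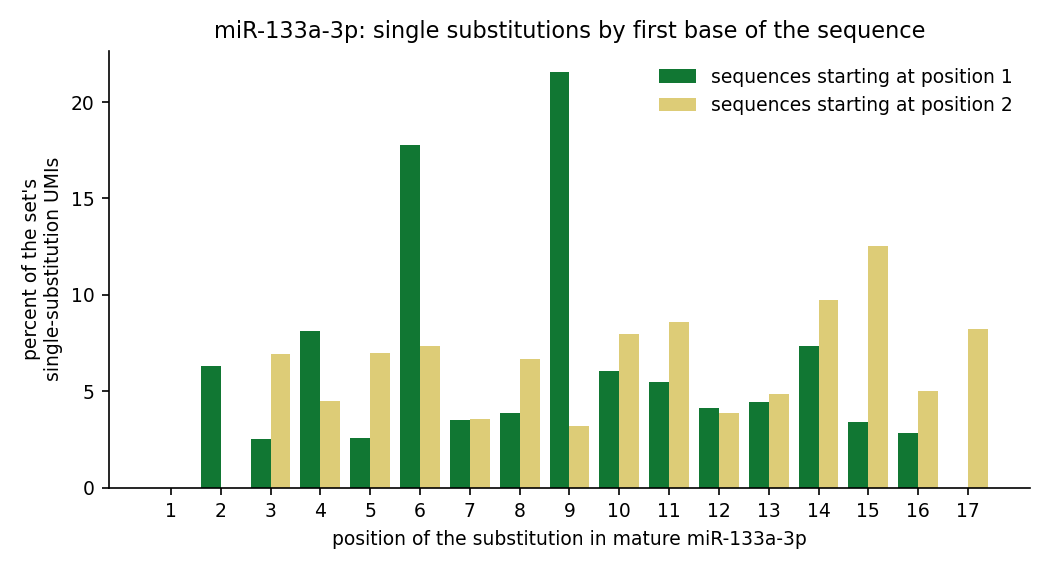
Share of single-substitution UMIs of miR-133a-3p at each position of the mature strand, in percent over all 6 libraries, for sequences starting at position 1 (27207 UMIs) and at position 2 (15766 UMIs). Positions 6 and 9 stand out only among sequences from position 1, and only sequences from position 2 reach position 17.

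Of the members with 2 substitutions, 128 had 1 of them at position 1 or past the range above. The most abundant pair was T1A with T6A in miR-1a-3p, with 15772 UMIs over 3 members, more than T6A alone. The 22-nt form of that pair had 3973, 2614 and 900 UMIs in Sham 1 to 3 and 2747, 1909 and 2291 in TAC 1 to 3. T22C, a change of the last annotated base, accompanied 26 other changes of miR-1a-3p in 30 members. Those members had 15.5, 14.6 and 14.6 UMIs per 100 UMIs of the same changes alone in Sham 1 to 3, and 11.8, 13.4 and 13.5 in TAC 1 to 3, so the groups did not overlap. T1A beside 10 other changes of miR-1a-3p, in 13 members, had 29.6, 28.1 and 24.5 per 100 in Sham and 24.6, 24.6 and 22.5 in TAC, which overlapped. A24T, beyond the usual end of miR-133a-3p, had 8.06, 6.89 and 9.83 per 100 in Sham and 6.87, 6.02 and 6.30 in TAC over 29 members. These ratios are sums over members and carry no test. The same changes alone were summed over all lengths, including forms too short to hold base 22 or 24. The part of the length shares given below in these ratios was not tested.

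Most of the changes shown above for miR-206-3p recurred in miR-1a-3p, at similar rates when summed over all 6 libraries. These sums weigh Sham more for miR-206-3p, with 34247, 11775 and 32762 UMIs in Sham 1 to 3 and 2999, 6986 and 5279 in TAC 1 to 3. Its rates of A5G and T6A were lower in TAC, as given below. At the miR-206 hairpin 13 sequences with 1 substitution met the rule of start and length given with the sequences above. For 12 of them the change was also listed for miR-1a-3p. Compared at 22 nt, A5G had 200 UMIs for 94048 of annotated miR-206-3p (0.213 per 100) and 16814 for 6664216 of miR-1a-3p (0.252 per 100). A4G had 0.124 and 0.150 per 100, G2A 0.118 and 0.159, and T6A 0.108 and 0.165. The rate in miR-1a-3p was 0.260 to 1.86 times that in miR-206-3p, with a median of 1.34, and the order of the 12 rates was alike (Spearman rho 0.88, a description over changes that share libraries and neighbouring bases). The lowest ratio was T16A, past the bases both miRNAs share in a row. G11T of miR-206-3p falls on a base that differs between the parents and has no counterpart.

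**Figure D3:**
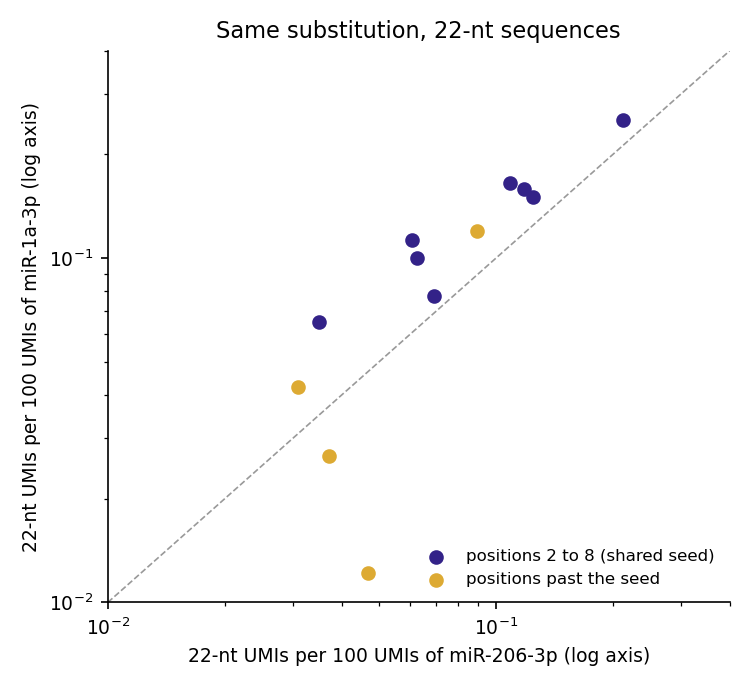
Rate of the same substitution in 22-nt sequences of miR-206-3p (x) and miR-1a-3p (y), as UMIs per 100 UMIs of the annotated miRNA over all 6 libraries, on log axes, with the line of equal rates dashed. Each of the 12 points is 1 substitution, and the 10 points above the line include every change in the seed.

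Per molecule of its annotated parent, single substitution was more frequent in each TAC library than in each Sham library, by a small margin. Sequences of miR-1a-3p with 1 substitution had 2.24, 2.24 and 2.20 UMIs per 100 UMIs of annotated miR-1a-3p in Sham 1 to 3, and 2.46, 2.34 and 2.43 in TAC 1 to 3. The means were 2.23 ± 0.0223 and 2.41 ± 0.0605 (SD, n = 3), and each TAC library lay above each Sham library. For miR-133a-3p the values were 2.18, 2.14 and 2.11 in Sham and 2.53, 2.45 and 2.64 in TAC, or 2.14 ± 0.0319 and 2.54 ± 0.0985 (SD, n = 3), again without overlap. These rates pool all starts and lengths. Of miR-133a-3p member UMIs, 22-nt forms from position 1 held a mean of 30.4% in Sham and 40.1% in TAC. Of miR-1a-3p member UMIs, 20-nt forms held 3.86% and 6.24%. The part of these shares in the rates was not tested, so a general rise in substitution is not shown. With 2 substitutions the groups overlapped for both miRNAs, at 0.616 ± 0.0458 and 0.597 ± 0.00390 for miR-1a-3p and 0.265 ± 0.0306 and 0.262 ± 0.0182 for miR-133a-3p. Unannotated sequences in all other miRNA hairpins had 1.29 ± 0.111 UMIs per 100 UMIs of other miRNAs in Sham and 1.42 ± 0.112 in TAC, and these overlapped.

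By single change, the rates of 13 of 44 in miR-1a-3p and 24 of 44 in miR-133a-3p lay higher in every TAC library than in every Sham library, and none lay lower. Of 15 such rates at the miR-206 and miR-133b hairpins 1 lay higher, 2 lay lower and 12 overlapped. The higher 1 was C9A of 20 nt, listed at miR-133b. Its 20 bases lie within the first 21, which miR-133b-3p shares with miR-133a-3p, so its parent cannot be told. Those 15 rest on only 29 to 200 UMIs each over all libraries. Rates of 1 strand share the same parent count in each library, so they do not vary independently. Each rate of miR-1a-3p and miR-133a-3p also sums over starts and lengths, whose shares differed between groups as given below. The counts of 13 and 24 can thus repeat 1 shift of forms, and the part of that shift was not tested. No such rate was computed over all unannotated sequences. By scaled counts, a different measure, 12.9% of all tested sequences lay higher in every TAC library. The changes without overlap included A5G in miR-1a-3p, at 0.295 ± 0.0132 and 0.322 ± 0.00570 per 100, and C10T in miR-133a-3p, at 0.0787 ± 0.00763 and 0.116 ± 0.0145 (SD, n = 3). T6A of miR-1a-3p overlapped, at 0.189 ± 0.0119 and 0.204 ± 0.0149. Reads per UMI were 1.00 to 1.01 for members and 1.03 to 1.08 for annotated miR-133a-3p in the 6 libraries. For annotated miR-1a-3p they ran from 1.07 in Sham 3 to 1.21 in Sham 1, with the TAC libraries between. The rates above are in UMIs, and the part of these differences in them was not tested.

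**Figure D4:**
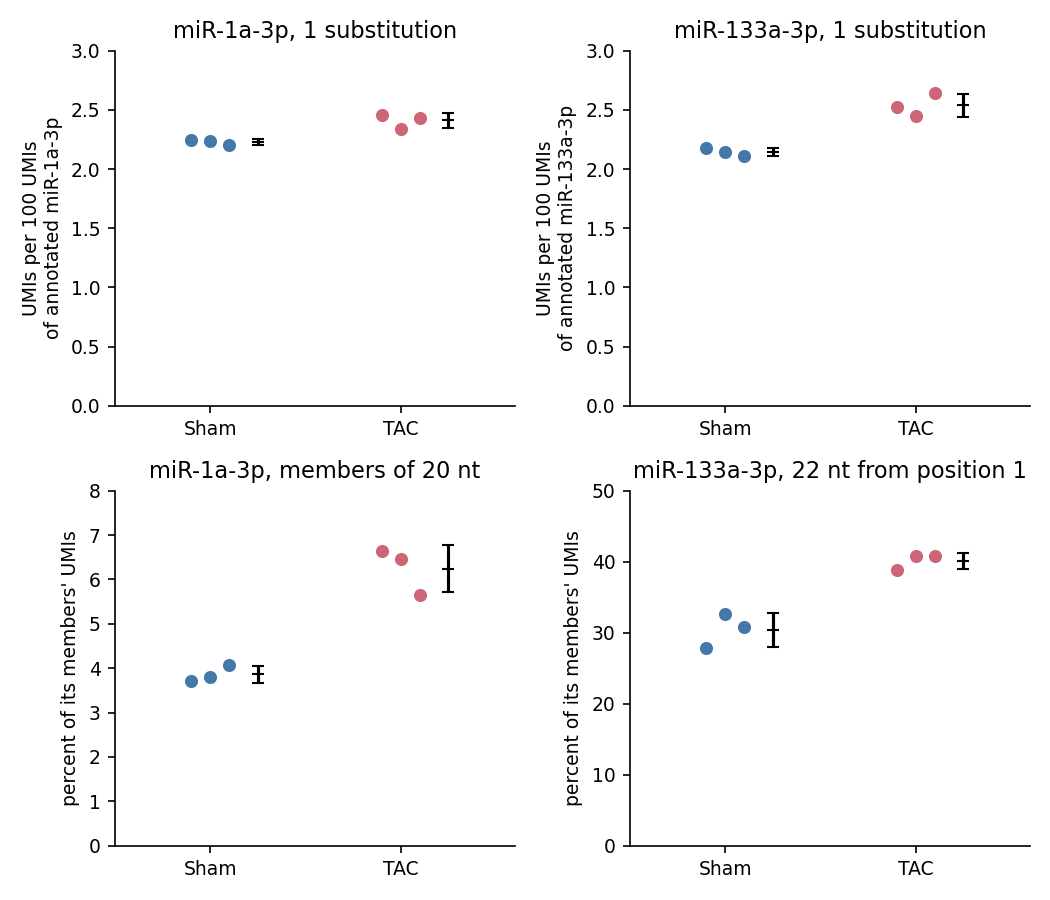
Each point is 1 library, with the mean and SD of 3 libraries beside it. The upper panels give sequences with 1 substitution per 100 UMIs of their annotated miRNA, and the lower panels the share of members' UMIs in 20-nt forms of miR-1a-3p and in 22-nt forms of miR-133a-3p from position 1, with all TAC libraries above all Sham libraries in the 4 panels.

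Tested sequence by sequence, no member differed between TAC and Sham past an adjusted p of 0.05 (edgeR quasi-likelihood test with Benjamini-Hochberg adjustment over 1244 tested sequences). Of the 444 members 337 passed the filter on low counts. Over all tested sequences 2 passed the threshold (0.161%), both lower in TAC and neither a member. At an unadjusted p under 0.05 there were 56 members (16.6%), each higher in TAC, against 20.8% of all tested sequences in either direction and 9.49% higher in TAC, and the lowest adjusted p among members was 0.0601. DESeq2 called 6 members among 54 sequences, and the fit together with the annotated miRNAs 9 among 46, these members all being higher in TAC. Members were 337 of the 1244 tested sequences, a larger share than of either set of calls. Leaving out Sham 3 gave 8 members. Fits with a library left out called 0 to 63 sequences, and the count for the fit without Sham 3 is not given here. No share of calls can therefore be read from the 8. Every TAC library lay above every Sham library for 78 tested members (23.1%), against 12.9% of all tested sequences, and below for 7 members, against 11% of all. The median log2 fold change was 0.22 over tested members and -0.0076 over all tested sequences. By strand it was 0.03 for 164 miR-1a-3p members, 0.44 for 165 miR-133a-3p members and -0.0026 for 8 miR-133a-5p members.

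Of the 56 members, 44 belonged to 2 forms by start and length. Among 20-nt miR-1a-3p sequences, which end 2 bases before the annotated end, 14 of 18 tested members had an unadjusted p under 0.05, with a median log2 fold change of 0.72. Among 22-nt miR-133a-3p sequences from position 1, the start and length of the annotated strand, 30 of 39 did, with a median of 0.91. In the other 280 tested members 12 did, with a median of 0.12. All 57 tested members of those 2 forms had a log2 fold change above 0, also with RLE or upper-quartile factors and with library sizes only. The 2 forms were picked after these values were seen, so the counts are a description.

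**Figure D5:**
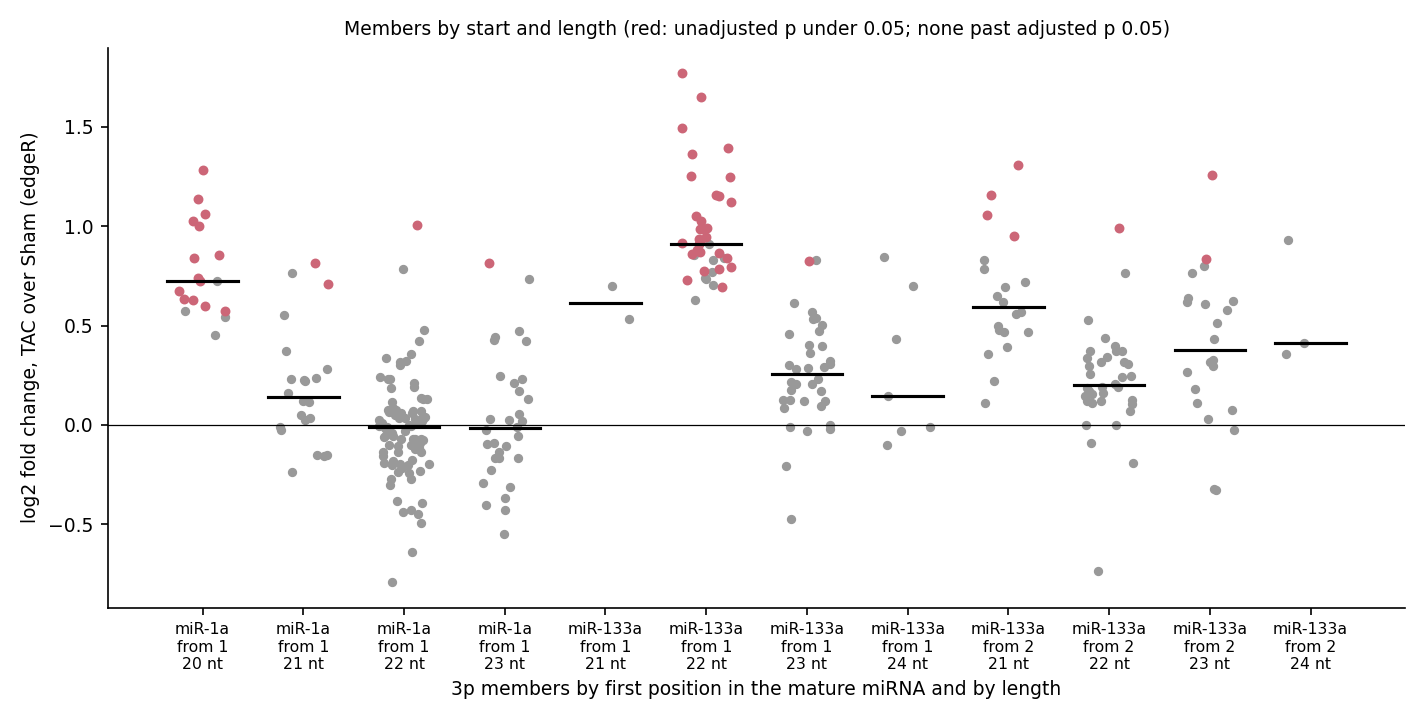
log2 fold change of TAC over Sham from edgeR for each tested 3p member, grouped by miRNA, first position and length, with the median of each group as a bar. Members with an unadjusted p under 0.05 are red and none passed an adjusted p of 0.05. The 20-nt forms of miR-1a and the 22-nt forms of miR-133a from position 1 lie wholly above 0.

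In miR-1a-3p the commonest change showed the contrast of lengths. The 22-nt form of A5G, the most abundant member, had 4071, 2835 and 1256 UMIs in Sham 1 to 3 and 3247, 2330 and 3075 in TAC 1 to 3. Scaled with TMM factors to UMIs per 1000000 unannotated UMIs (CPM) this was 33691 ± 2691 (SD, n = 3) under Sham and 33597 ± 2472 under TAC. The groups overlapped, and the log2 fold change was -0.0043 (SE 0.15). The 20-nt form of the same change had 359, 246 and 108 UMIs in Sham and 533, 376 and 460 in TAC. In CPM it stood at 2932 ± 265 and 5310 ± 205 (SD, n = 3), with no overlap, and edgeR put the log2 fold change at 0.85 (SE 0.19) with an adjusted p of 0.0612. Its 21-nt form, at 1849 ± 150 and 2005 ± 111 CPM, had a log2 fold change of 0.12 (SE 0.21). G3A showed the same order, with log2 fold changes of 0.05 (SE 0.19) at 22 nt and 0.60 (SE 0.22) at 20 nt.

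Most other abundant miR-1a-3p members were near 0. T6A, G2A, A4G, A14G, G2C, G7A, A10G and G2T of 22 nt, with 4354 to 10999 UMIs each, had log2 fold changes from -0.07 to 0.04, and their groups overlapped. The same held for T8A, T8C and A4T, from -0.07 to 0.03. G3T, with 1078, 778 and 303 UMIs in Sham and 960, 777 and 906 in TAC, had 0.23 (SE 0.18). The pair T1A with T6A of 22 nt, second in abundance, had -0.14 (SE 0.19) and T1A with G2C -0.10 (SE 0.22), and both overlapped. Of the pairs with T22C, A5G with T22C had -0.12 (SE 0.20) and G12A with T22C, named for its small p, -0.44 (SE 0.25). Per UMI of annotated miR-1a-3p, the mean rate of pairs with T22C was lower in TAC for some and higher for others. The lowest value of a miR-1a-3p member was -0.79 (SE 0.39) for T1A with T16C, which had 65 UMIs in all.

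In miR-133a-3p the members with the smallest p were 22-nt forms from position 1. C9T had 61, 39 and 20 UMIs in Sham 1 to 3 and 134, 115 and 82 in TAC 1 to 3, or 500.1 ± 27.6 and 1295 ± 298 CPM (SD, n = 3). Its log2 fold change was 1.36 (SE 0.26), with 0.0601 as adjusted p by edgeR, and the groups did not overlap. A14C had 87, 54 and 23 UMIs in Sham and 125, 119 and 136 in TAC (log2 fold change 1.16, SE 0.24). C10A had 1.65 (SE 0.36) on 4 to 44 UMIs a library, C7T 1.49 (SE 0.33) on 244 UMIs in all and C10T 1.25 (SE 0.31) on 895, each without overlap. On the lower side stood T6G of 22 nt from position 2, at -0.74 (SE 0.40) on 67 UMIs, and the pair C9A with T23A at -0.47 (SE 0.30) on 104 UMIs.

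The shares of these forms in each library lay in the same order. Sequences of 20 nt made 3.70%, 3.81% and 4.08% of miR-1a-3p member UMIs in Sham 1 to 3 and 6.63%, 6.46% and 5.64% in TAC 1 to 3. Sequences of 22 nt from position 1 made 27.9%, 32.7% and 30.7% of miR-133a-3p member UMIs in Sham and 38.8%, 40.7% and 40.7% in TAC. Those of 23 nt from position 1 made 26.6%, 24.1% and 25.3% in Sham and 22.4%, 20.9% and 19.7% in TAC, which is the reverse order, again without overlap. The register from position 2 as a whole made 41.7% ± 1.23 in Sham and 36.8% ± 0.594 in TAC (SD, n = 3). These shares are among substituted sequences, since lengths of the annotated reads were not analysed here.

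The annotated strands of the same hairpins give the levels beside which the members stand. miR-1a-3p had 1667425, 1148664 and 485220 UMIs in Sham and 1282138, 927966 and 1152803 in TAC. The fold change from edgeR was 0.27 on the log2 scale (SE 0.16), its adjusted p was 0.264, and with library sizes only the value was -0.0018. miR-133a-3p had 402837, 278355 and 107271 UMIs in Sham and 431716, 350477 and 247029 in TAC, for which edgeR gave 0.63 (SE 0.21) and an adjusted p of 0.0697, or 0.37 and 0.215 with library sizes only. The TMM factors of the miRNA table were 0.877 to 0.953 in TAC and 1.05 to 1.21 in Sham, and the median log2 fold change of all miRNAs was 0.04 with them and -0.24 without. miR-133a-5p had 0.30 (SE 0.29), or 0.05 with library sizes only, miR-1a-1-5p 0.85 (SE 0.58) on 12 to 102 UMIs a library, miR-1a-2-5p 0.24 (SE 0.87) on 0 to 23, and miR-1b-5p, from the hairpin opposite Mir1a-2, 0.35 (SE 0.21). miR-1b-3p, with 0 to 13 UMIs a library, was below the filter. miR-133c rose on few molecules, with 7, 6 and 1 UMIs in Sham and 15, 15 and 11 in TAC (1.74, SE 0.41, adjusted p = 0.0247 by edgeR, 0.0531 by DESeq2). Among all 322 tested miRNAs 71 passed (22%). Of 15 tested muscle-enriched miRNAs 1 rose and 2 fell, with a median of 0.24 against that 0.04 over all miRNAs.

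The same changes in miR-206-3p had log2 fold changes below 0, as annotated miR-206-3p did. A5G of miR-206-3p had 975.5 ± 903 CPM (SD, n = 3) under Sham and 87.2 ± 59.1 under TAC. By edgeR the log2 fold change came to -3.45 (SE 0.76; adjusted p = 0.0601), beside -0.0043 for the 22-nt A5G of miR-1a-3p. T6A of miR-206-3p had -3.35 (SE 0.74) and G2A -2.98 (SE 0.78), each with no overlap and neither past the threshold. Per 100 UMIs of annotated miR-206-3p, A5G had 0.221 ± 0.0278 in Sham and 0.130 ± 0.0288 in TAC (SD, n = 3). T6A had 0.116 ± 0.0102 and 0.0713 ± 0.00455. Both were lower in every TAC library, while the other 11 changes overlapped. These rates rest on few molecules, A5G having 74, 23 and 82 UMIs in Sham and 3, 11 and 7 in TAC. T6A had 36, 14 and 41 in Sham and 2, 5 and 4 in TAC. G2A had 39, 14 and 43 in Sham and 1, 7 and 7 in TAC. T6A and G2A thus reached the 10 UMIs needed for listing only in Sham, the group where they were higher. For miR-1a-3p the rate of A5G was higher in every TAC library when summed over all lengths, including 20 nt. That is not a like comparison, since the miR-206-3p sequences are all 22 nt. At 22 nt A5G of miR-1a-3p overlapped between groups in CPM, and its rate per parent UMI was not computed by library. Annotated miR-206-3p itself fell, by 2.37 on the log2 scale (SE 0.62), and edgeR's adjusted p was 0.0342. At the miR-133b hairpin 2 sequences with 1 substitution met the same rule, C9A and T6A of 20 nt. They carried the leading changes of miR-133a-3p, and their 20 bases lie within the 21 that miR-133b-3p shares with it. They had 47 and 34 UMIs.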

How the data were processed

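The values are UMI counts and read counts per sequence in the tables the authors deposited, raw per the file headers. Libraries were made from 100 ng of total RNA with the QIAseq miRNA kit, per the labels' protocols. Per the submitters' processing notes the genome was GRCm38. Which aligner was used, with what mismatches and filters, is not given in the sources used here. A sequence is listed where it reached at least 10 UMIs in some library, so rarer variants are missing from every sum. Deposited positions count from 0 and are given here from 1. Columns were matched through the sample descriptions, whose numbers run through TAC first and Sham next. Group and column number cannot be told apart.

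Members were placed without gaps on the GENCODE vM21 hairpins and their differences listed. Counts of all unannotated sequences were fitted with edgeR 4.0.16 in R 4.3.3 (TMM factors, minimum count 10 and minimum total 15 in filterByExpr, two-sided quasi-likelihood F test, Benjamini-Hochberg, threshold 0.05), and the miRNA table likewise. The code was tested on simulated data. Alternatives covered scaling, filter, DESeq2 1.42.0, limma-voom (limma 3.58.1), reads, a joint fit, a replicate block, a threshold of 0.1 and each library left out. Sums over members have no test. The named members are the 10 with most UMIs and the 3 with the smallest p in each direction at each locus, and others named were chosen after their values were seen. The members, lists and forms were chosen with earlier results of these data known. Sequences of the members are not printed because they match both loci.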

Additional observations from a re-analysis of the deposited data

How the results depend on the processing

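The count of unannotated sequences past the threshold was 2 in the edgeR fit, 0 with library sizes only, 1 with miRNA UMIs as library size, 1 by limma-voom, 46 in the joint fit with miRNAs, 54 by DESeq2, 129 at a threshold of 0.1, and 0 to 63 when each library in turn was left out. Members past it numbered 0, and 9 in the joint fit, 6 by DESeq2, 33 at the threshold of 0.1 and 0 to 8 with a library left out, the 8 being without Sham 3. The cause was not tested. With the replicate number as a block 141 sequences passed, 30 of them members, and miR-133a-3p had an adjusted p of 0.00926 by edgeR. The numbers were not shown to pair the libraries, since same-numbered libraries correlated with r = 0.089, 0.060 and 0.18 across sequences and Sham 2 correlated best with TAC 1. The 3p arms held 99.6% of member UMIs but 98.0% with each sequence counted once, and the annotated start 91.8%, 67.6% with each counted once and 100% within 5 bases. The log2 ratio of TAC over Sham of substituted UMIs per parent UMI was 0.081 for miR-1a-3p (0.062 to 0.097 with a library left out, 0.11 with single substitutions only) and 0.22 for miR-133a-3p (0.19 to 0.25). TAC minus Sham of the 20-nt share was 2.38 percentage points (2.19 to 2.68, and 2.86 with single substitutions only), and of the 22-nt share of miR-133a-3p 9.65 (8.39 to 10.8).

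The 22-nt miR-1a-3p members near 0 changed sign. With RLE factors, DESeq2 and limma-voom A14G was -0.010, -0.010 and -0.0012. With upper-quartile factors A5G, G2T, G7A, T6A and T8C were 0.059, 0.051, 0.024, 0.049 and 0.033, with library sizes only 0.066, 0.068, 0.038, 0.065 and 0.036, with miRNA UMIs as library size 0.044, 0.038, 0.0097, 0.037 and 0.015, and in the joint fit 0.044, 0.039, 0.011, 0.038 and 0.015. A5G was 0.00084 on reads. With library sizes only G2C was 0.0056, T8A 0.0039, annotated miR-1a-3p -0.0018 and miR-1a-2-5p -0.00011. With a library left out the ranges were -0.068 to 0.079 for A10G, -0.090 to 0.041 for A14G, -0.060 to 0.099 for A4G, -0.15 to 0.16 for A4T, -0.097 to 0.045 for A5G, -0.098 to 0.12 for G2A, -0.15 to 0.075 for G2T, -0.089 to 0.12 for G3A, -0.14 to 0.013 for G7A, -0.16 to 0.074 for T6A, -0.20 to 0.022 for T8A and -0.093 to 0.037 for T8C.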
